A study of Mus musculus with 2 samples.

Results

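The nuclei described here were those that the authors' annotation named Müller glia in a single-nucleus RNA sequencing experiment on whole mouse retina at postnatal day 21. They were selected by that name in the 2 deposited cell tables and fell into 3 clusters, numbered 14, 30 and 37. They made up 246 of 14123 nuclei, with 144 of 7357 in the Cre- library and 102 of 6766 in the Tet tcKO library. All animals were C57 BL/6J. The Cre- library was labelled WT and came from animals without the Cre transgene. The Tet tcKO animals carried loxP-flanked alleles of Tet1, Tet2 and Tet3 on both chromosomes together with a Chx10-Cre-GFP transgene, which expresses Cre in retinal progenitors and is known to be mosaic. TET enzymes oxidise 5-methylcytosine in DNA. Each genotype was 1 library made from 2 pooled dissociations, and the pool of each nucleus was not used here.

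Müller glia are the main glial cells of the vertebrate retina and the last cell type that its progenitors produce. They span the whole thickness of the tissue, take up glutamate and convert it to glutamine, buffer potassium and water, recycle retinoids for cones, and contact blood vessels. They retain several transcription factors of retinal progenitors, among them Pax6, Rax, Lhx2 and Hes1. Because they derive from Chx10-expressing progenitors, they lie within the lineage in which the TET enzymes were targeted.

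With 1 library per genotype no difference between genotypes was tested, and no p-value is given. Levels are summed unique molecular identifiers (UMIs) of a group of nuclei per 1e+06 UMIs of that group (CPM), and ratios are log2 ratios of these levels. All intervals are 95% intervals for counting error only. They do not include variation between animals or libraries. Intervals of levels and ratios also treat each UMI as independent, so they leave out variation between nuclei. Because the clusters had been built from the same genes, differences between them are descriptions. The groups held 174622 UMIs in Cre- cluster 14, 43409 in Cre- cluster 30, 67497 in Tet tcKO cluster 30 and 81734 in Tet tcKO cluster 37. Below, 4 values in a row follow this order of groups, and a pair of values for the remaining nuclei gives Cre- before Tet tcKO. Median UMIs per nucleus were 1290, 907, 1350 and 1453.5, against 1107 and 1856 in the remaining nuclei of the Cre- and Tet tcKO libraries. The median mitochondrial percentage in the deposited cell tables was 6.26, 5.80, 4.04 and 4.53 in the 4 groups, against 9.62 in the remaining Cre- nuclei and 5.42 in the remaining Tet tcKO nuclei. The libraries shared 1 cell barcode, and no Müller nucleus carried it.

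Müller nuclei formed 1.96% (1.65 to 2.30, Clopper-Pearson interval) of the Cre- library and 1.51% (1.23 to 1.83) of the Tet tcKO library. The division among clusters differed far more than this total. Cluster 14 held 99 Cre- nuclei, or 1.35% (1.09 to 1.64), and 0 of 6766 Tet tcKO nuclei, where 3 nuclei, taken as the limit of a count of 0, would be 0.0443% and the Clopper-Pearson upper limit is 0.0545%. Cluster 37 held 56 Tet tcKO nuclei, or 0.828% (0.626 to 1.07), and only 2 Cre- nuclei. Cluster 30 held more than a few nuclei of both libraries, with 43 Cre- nuclei at 0.584% (0.423 to 0.786) and 46 Tet tcKO nuclei at 0.680% (0.498 to 0.906). Cluster and library therefore cannot be told apart in a comparison of cluster 37 with cluster 14, whereas the 2 sides of cluster 30 share a cluster and differ in library.

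The label was set beside 15 Müller markers. The authors had named the clusters by their enrichment of marker genes, so these values describe the annotation and are no independent check of it. All 4 groups carried more marker UMIs than the other nuclei of their library, and cluster 30 carried the most within each library. The summed marker level was 3247 CPM (2985 to 3526) in Cre- cluster 14 and 6335 CPM (5608 to 7130) in Cre- cluster 30. It was 3748 CPM (3301 to 4240) in Tet tcKO cluster 30 and 2630 CPM (2291 to 3007) in Tet tcKO cluster 37. The same sum over the remaining nuclei was 1086 CPM (Cre-) and 777 CPM (Tet tcKO). On the log2 scale the excess over the remaining nuclei of the same library was 1.58 (1.46 to 1.70) in cluster 14, 2.54 (2.37 to 2.72) in Cre- cluster 30, 2.27 (2.08 to 2.45) in Tet tcKO cluster 30 and 1.76 (1.56 to 1.95) in cluster 37. Of the 15 markers, 15, 15, 13 and 14 had a point value above the remaining nuclei in these 4 groups. Some of these rested on 1 UMI, such as Kcnj10 and Sox9 in Cre- cluster 30 and Etnppl in each Tet tcKO group. In both Cre- groups the intervals of Apoe and Clu included 0. The share of all genes above the remaining nuclei was not computed, so these counts have no background.

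**Figure D1:**
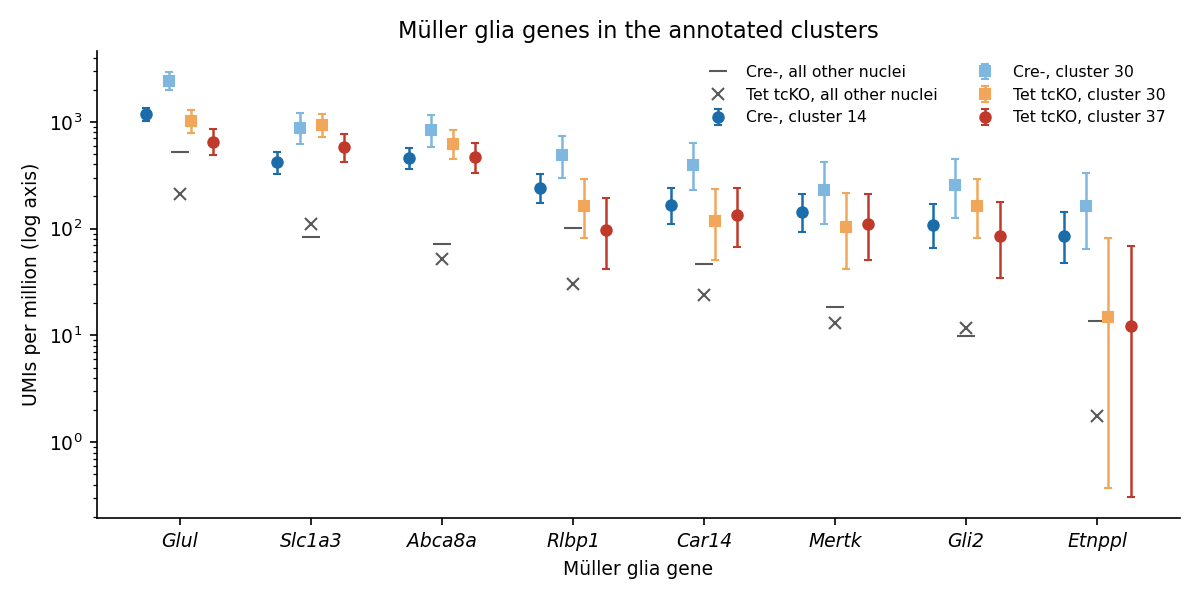
Levels of 8 Müller genes (CPM, log axis) in the 4 cluster groups and in the remaining nuclei of each library; points are summed UMIs and bars are 95% Poisson intervals. Slc1a3 stood between 418 and 933 CPM in the 4 groups and at 83.5 and 109.7 CPM in the remaining nuclei.

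Slc1a3, the glutamate transporter GLAST (chr15:8663604-8741595, minus strand, GRCm39), lay above the remaining nuclei in every group. Its level was 418 CPM (73 UMIs) in Cre- cluster 14, 875 CPM (38 UMIs) in Cre- cluster 30, 933 CPM (63 UMIs) in Tet tcKO cluster 30 and 575 CPM (47 UMIs) in Tet tcKO cluster 37. The remaining nuclei of both libraries lay below all 4 groups, at 83.5 and 109.7 CPM. Abca8a, which encodes a lipid transporter of the ABC family, behaved alike, at 458, 829, 622 and 465 CPM against 71.8 and 52.1 CPM in the remaining nuclei. Mertk (chr2:128540729-128645080, plus strand), a receptor for engulfment of dying cells and shed membrane, stood at 143, 230.4, 103.7 and 110.1 CPM against 18.3 and 13.2 CPM. Gli2 (chr1:118761858-118982598, minus strand), a transcription factor of the hedgehog pathway, stood at 108.8, 253, 163 and 85.6 CPM against 9.92 and 11.8 CPM. These 4 genes marked the annotated nuclei in either library, although Mertk and Gli2 rested on 7 to 25 UMIs per group.

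Other markers separated the clusters from their surroundings less evenly. Glul, or glutamine synthetase, was at 1179.7 CPM (206 UMIs), 2419 CPM (105 UMIs), 1007 CPM (68 UMIs) and 648 CPM (53 UMIs), with 519 CPM in the remaining Cre- nuclei and 212 CPM in the remaining Tet tcKO nuclei. Rlbp1 (chr7:79024602-79038176, minus strand), the cellular retinaldehyde-binding protein, was at 241, 484, 163 and 97.9 CPM, against 101.4 and 30.1 CPM. Both genes were thus lower in Tet tcKO than in Cre- among Müller nuclei and among all other nuclei. Etnppl (chr3:130411097-130431441, plus strand), an enzyme of ethanolamine phospholipid metabolism, gave 15 and 7 UMIs in Cre- clusters 14 and 30 but 1 UMI in each Tet tcKO group. Its level in the remaining nuclei was 13.6 CPM (Cre-) and 1.76 CPM (Tet tcKO), so that it was scarce throughout the Tet tcKO library. Car14, a membrane carbonic anhydrase, stood at 166, 392, 118.5 and 134.6 CPM, against 47.0 and 23.7 CPM. Sox9, a transcription factor of Müller glia, gave 7, 1, 4 and 4 UMIs. Apoe, an apolipoprotein made by retinal glia, did not exceed the remaining nuclei in Tet tcKO, at 163 and 159 CPM against 179 CPM.

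After each nucleus was thinned to 500 UMIs, 38 of 99 nuclei (38.4%, 28.8 to 48.7) in cluster 14 had a UMI of any of Gli2, Mertk, Slc1a3, Rlbp1 and Etnppl. The share was 31 of 43 (72.1%, 56.3 to 84.7) in Cre- cluster 30, 17 of 46 (36.96%, 23.2 to 52.5) in Tet tcKO cluster 30 and 20 of 56 (35.7%, 23.4 to 49.6) in cluster 37. Retinal ganglion cells, which should lack these genes, gave 4.76% in Cre- and 2.56% in Tet tcKO, amacrine cells gave 7.20% and 4.51%, and photoreceptors gave 12.7% and 10.0%. All 4 Müller groups stood above the shares in these neurons of the same library. Without thinning the shares were 73.7%, 93.0%, 89.1% and 67.9%, against 28.5% and 34.1% in photoreceptors. Of 42 Cre- nuclei with UMIs of 2 or more of the 5 markers after thinning, 14 were annotated as Müller glia and 24 as rods, which was 9.72% of the 144 Müller nuclei and 0.460% of the 5214 rods. Of 27 such Tet tcKO nuclei, 3 were annotated as Müller glia and 16 as cones, which was 2.94% of the 102 Müller nuclei and 0.496% of the 3225 cones.

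The genes with the greatest fold over the remaining nuclei of the same library included few of the listed markers. In Cre- cluster 14 the leading 10 included Sned1, Mertk, Gm11906, BC055402, Gm3764, Cped1, Plce1, Itga9 and Tcf7l1. In Cre- cluster 30 they were Il33, Egfr, Tcf7l2, Plpp3, Lrrc8c, Abca8b, Utp14b, Sntb1, Prex2 and Gm3764. In Tet tcKO cluster 30 they were Slco1c1, Flt1, Ano1, Megf10, Folh1, Gm29260, Ust, Gm11906, Adamtsl1 and Abca8a. In Tet tcKO cluster 37 they were Ano1, Tcf7l1, Lef1, Gm29260, Greb1, Gm3764, Cp, Gm11906, Plce1 and Flt1. Mertk led among the markers in cluster 14 and Abca8a in Tet tcKO cluster 30, whereas Cre- cluster 30 and cluster 37 had none of the 15 markers among their leading 10. Both Tet tcKO groups had 1 endothelial marker there, Flt1, at rank 2 in cluster 30 and rank 10 in cluster 37. The clusters are therefore compared by number, and the name Müller glia is the authors' annotation.

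Flt1 and Kdr, which encode receptors for vascular endothelial growth factor, stood well above the remaining nuclei in all 4 groups. Flt1 was at 601 CPM (105 UMIs) in cluster 14, 1382 CPM (60 UMIs) in Cre- cluster 30, 548 CPM (37 UMIs) in Tet tcKO cluster 30 and 330.3 CPM (27 UMIs) in cluster 37, against 112.2 and 36.5 CPM in the remaining nuclei. Kdr was at 114.5, 253, 267 and 195.8 CPM, against 32.6 and 42.1 CPM. The other endothelial markers gave too few UMIs to show whether they were also higher. Cldn5 and Cdh5, components of endothelial junctions, gave at most 1 UMI in any of the 4 groups, and Tie1 and Egfl7 gave 0 UMIs. Pecam1 gave 7, 1, 0 and 11 UMIs, which in cluster 37 came from 4 nuclei and was 134.6 CPM against 64.7 CPM in the remaining Tet tcKO nuclei. Pdgfrb, a receptor of pericytes, gave 12, 9, 2 and 3 UMIs. In Cre- cluster 30 these came from 9 nuclei, made up all UMIs of the pericyte list and were 207 CPM (94.8 to 394), against 12.2 CPM in the remaining Cre- nuclei. The pericyte list as a whole summed to 15, 9, 3 and 3 UMIs, or 85.9, 207, 44.4 and 36.7 CPM, against 28.0 and 20.9 CPM in the remaining nuclei. The part of vascular RNA in the values of these groups was not tested. Microglial, pigment epithelial and oligodendrocyte marker lists each summed to 9 UMIs or fewer in every group. Of the astrocyte markers, Aldh1l1 gave 2, 5, 1 and 3 UMIs, and Pax2, Gfap and Pdgfra gave at most 2 in any group. In Cre- cluster 30 Aldh1l1 was at 115 CPM (37.4 to 269) in 5 nuclei, against 8.06 CPM in the remaining Cre- nuclei.

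Rod, cone and bipolar markers in the annotated nuclei set clusters 14 and 37 apart from cluster 30. The rod markers summed to 6145 CPM in cluster 14, 3156 CPM in Cre- cluster 30, 1126 CPM in Tet tcKO cluster 30 and 2349 CPM in cluster 37. Relative to the remaining nuclei of the same library these are log2 values of -0.37, -1.34, -1.67 and -0.61. The corresponding log2 values were 0.17, -1.05, -1.53 and 0.03 for the cone markers and 0.07, -1.56, -1.22 and -0.52 for the bipolar markers. Clusters 14 and 37 thus carried cone marker RNA near the level of the remaining nuclei, and cluster 30 carried less. The remaining nuclei themselves differed between libraries, in that 5214 of 5479 Cre- photoreceptors were annotated as rods and 3225 of 3231 Tet tcKO photoreceptors as cones. Amacrine markers were below the remaining nuclei in all 4 groups (-0.32, -1.33, -1.48 and -1.28), as were ganglion cell markers (-1.11, -1.40, -0.58 and -1.44).

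**Figure D2:**
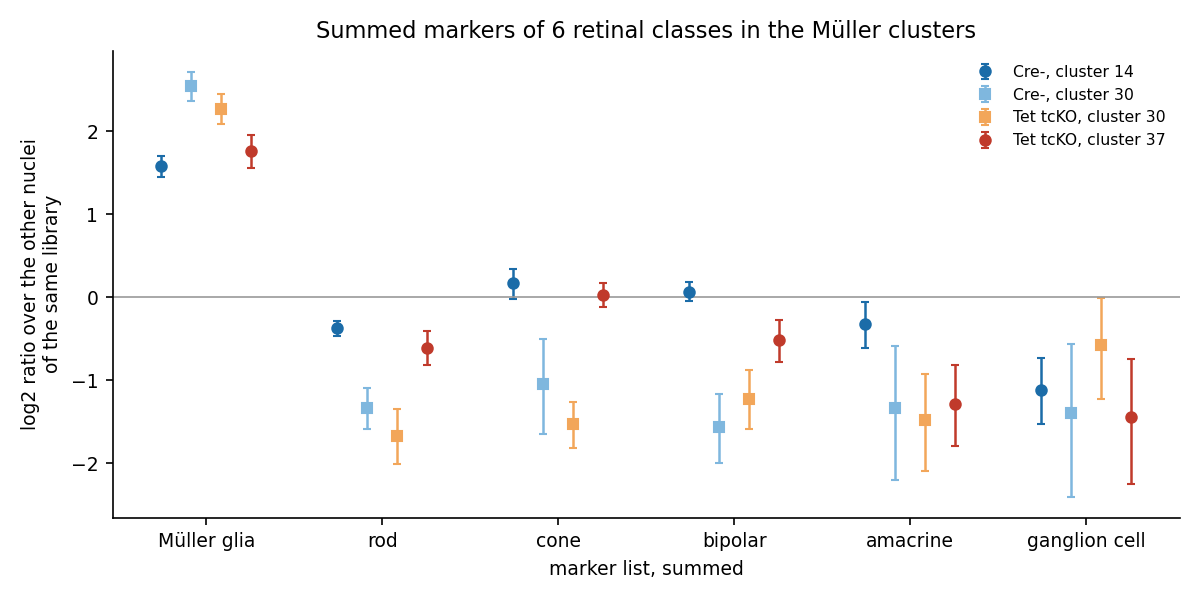
Summed level of 6 cell class marker lists in the 4 cluster groups, as log2 ratio to the remaining nuclei of the same library with 95% intervals; 0 is the level of the remaining nuclei. Müller markers lay between 1.58 and 2.54 in all 4 groups, and the cone markers lay at 0.17 in cluster 14 and 0.03 in cluster 37 but at -1.05 and -1.53 in the 2 sides of cluster 30.

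The same held nucleus by nucleus. The median share of UMIs from Müller markers was 0.307% in cluster 14, 0.655% in Cre- cluster 30, 0.341% in Tet tcKO cluster 30 and 0.192% in cluster 37. The median share from rod and cone markers was 0.620%, 0.345%, 0.220% and 0.622%. Photoreceptor RNA therefore exceeded Müller marker RNA in the median nucleus of clusters 14 and 37 and was below it in cluster 30 of both libraries. The share from photoreceptor markers reached 3.02% in a nucleus of cluster 14 and 2.61% in a nucleus of cluster 37, while the highest values in cluster 30 were 0.888% and 1.01%. Across nuclei, the rank correlation of the photoreceptor with the Müller share was -0.20 in cluster 14 (n = 99), -0.06 in Cre- cluster 30 (n = 43), 0.01 in Tet tcKO cluster 30 (n = 46) and 0.15 in cluster 37 (n = 56). These nuclei share a library, and the shares of 1 nucleus share its total. The rank correlation of the photoreceptor share with UMIs per nucleus was 0.41, 0.32, -0.05 and -0.22 in the same order. By a score that counted pairs of genes seldom found in the same nucleus, 11 of 99 nuclei of cluster 14 and none of the other 3 groups were in the highest 10% of their library, as were 10.1% of the remaining Cre- nuclei. This score rose with UMIs per nucleus, at a rank correlation of 0.72 over all Cre- nuclei and 0.78 over all Tet tcKO nuclei. It was not adjusted for depth. The part of mixed nuclei or free RNA in these values was not tested.

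**Figure D3:**
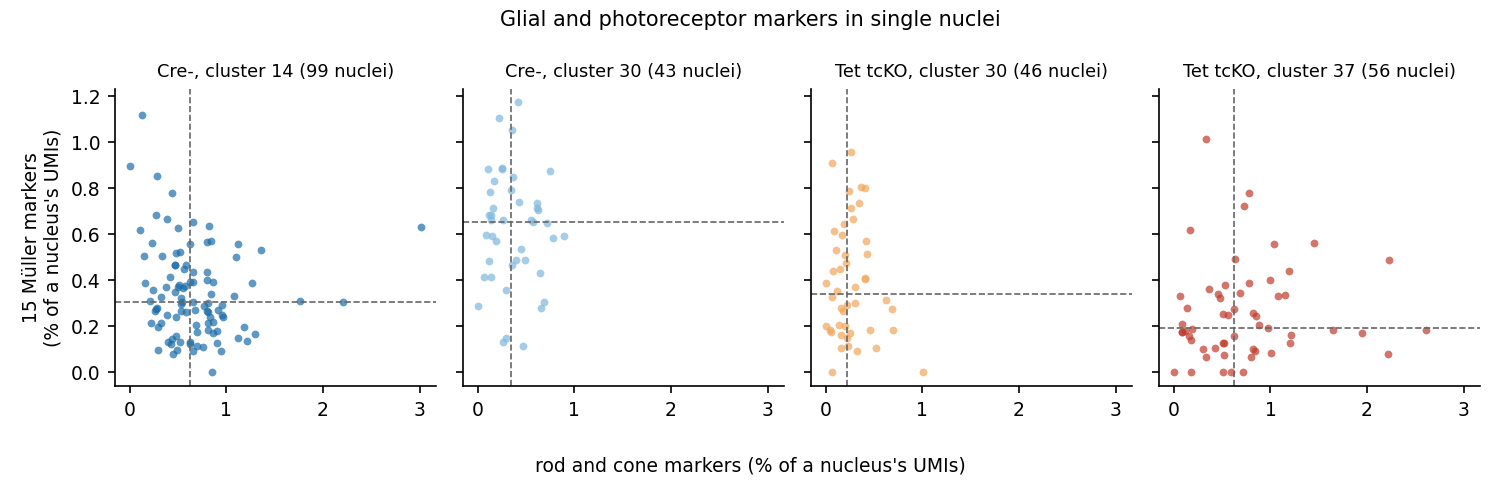
Each point is 1 annotated nucleus, with the percent of its UMIs from rod and cone markers (horizontal) and from Müller markers (vertical). The 4 panels are the cluster groups and dashed lines are medians. The median photoreceptor share was 0.620% in cluster 14 and 0.622% in cluster 37, against 0.345% and 0.220% in the 2 sides of cluster 30.

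Among the listed classes, rod, cone and bipolar markers parted Tet tcKO cluster 37 from Cre- cluster 14 by more than the Müller markers did. Genes with 20 or more UMIs over both groups were counted, and of 2841 such genes 191 (6.72%) were at least 2-fold higher and 395 (13.9%) at least 2-fold lower in cluster 37. With edgeR's TMM scaling the split was 126 higher and 523 lower. Among 10 Müller markers with enough UMIs, none was 2-fold higher and 1 was 2-fold lower. This was Rlbp1, at a log2 ratio of -1.30 (-2.60 to -0.19), and Glul joined it under TMM scaling. The 15 Müller markers summed to a log2 ratio of -0.30 (-0.54 to -0.07). The same ratio over all nuclei not annotated as Müller glia, Tet tcKO over Cre-, was -0.48. Slc1a3 (0.46), Abca8a (0.02), Mertk (-0.38) and Gli2 (-0.35) all had intervals that included 0, and Glul stood at -0.86 (-1.33 to -0.42), or -0.38 when each gene counted at most once in a nucleus, against -1.29 in the remaining nuclei.

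Rod and cone markers diverged. Of 11 rod markers, 8 were at least 2-fold lower in cluster 37, and the list summed to -1.39 (-1.62 to -1.16), against -1.15 in the remaining nuclei. Of 7 cone markers counted, 5 were at least 2-fold higher, and the list summed to 1.70 (1.47 to 1.93), against 1.83 in the remaining nuclei. Cngb3, a subunit of the cone cyclic nucleotide-gated channel, was the fullest example, at 2153 CPM in cluster 37 (176 UMIs in 44 of 56 nuclei) and 355 CPM in cluster 14 (62 UMIs in 29 of 99 nuclei). Its log2 ratio of 2.60 (2.18 to 3.04), or 1.56 when counted at most once in a nucleus, compares with 3.07 in the remaining nuclei. In these lists the difference between clusters 37 and 14 had the sign and nearly the size of the difference between the libraries. In summed UMIs the bipolar markers departed from this, with 4 of 7 lower and a sum of -1.12 (-1.40 to -0.84), against -0.53 in the remaining nuclei. When each gene counted at most once in a nucleus, the sum for cluster 37 over 14 was -0.37. The remaining nuclei were not counted in that way, and the departure thus rested on the summed UMIs. Trpm1, the cation channel of ON bipolar cells, was at 195.8 CPM in cluster 37 and 944.9 CPM in cluster 14, and Grik1, a kainate receptor subunit, was at 232 and 664 CPM while the remaining nuclei differed by only 0.23 on the log2 scale.

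**Figure D4:**
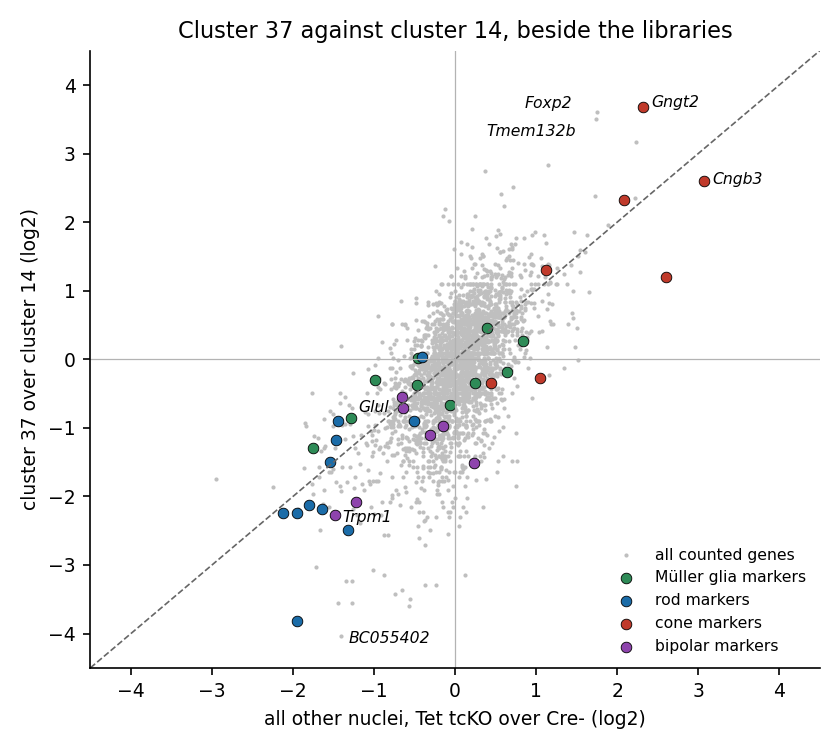
Log2 ratio of each counted gene in Tet tcKO cluster 37 over Cre- cluster 14 (vertical) against the Tet tcKO over Cre- ratio in all nuclei not annotated as Müller glia (horizontal), with marker lists coloured and the dashed line marking equal ratios. Foxp2 and Tmem132b lay above the line, at 3.61 and 3.50 against 1.75 and 1.74, while Cngb3 lay at 2.60 against 3.07.

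Single genes were also set beside the difference between the remaining nuclei. The difference of the 2 log2 ratios had an interval above 0 for 131 of 2838 genes and below 0 for 174. Foxp2 (chr6:14901287-15441976, plus strand), a forkhead transcription factor, was at 489 CPM in cluster 37 (40 UMIs in 29 nuclei) and 40.1 CPM in cluster 14 (7 UMIs in 6 nuclei). Its log2 ratio was 3.61 (2.44 to 5.01), its ratio in the remaining nuclei was 1.75, and the difference of the 2 was 1.86 (0.68 to 3.03). Foxp2 and the other genes named from the ends of this ranking were chosen on these same counts. Their ratios and differences may therefore be overstated, and the intervals do not allow for that choice. Cluster 30 showed the same order for this gene, with 230.4 CPM on the Cre- side and 919 CPM on the Tet tcKO side. Tmem132b (chr5:125608838-125869647, plus strand), a transmembrane protein gene, was at 648 CPM in cluster 37 and 57.3 CPM in cluster 14, with a difference of 1.76 (0.77 to 2.75) from the remaining nuclei. Its level in cluster 30 was 299 CPM on the Cre- side and 800.0 CPM on the Tet tcKO side. Crym, which encodes a thyroid hormone-binding crystallin, was at 245 and 34.4 CPM in clusters 37 and 14 and at 430 and 115 CPM in Tet tcKO and Cre- cluster 30. Both Tet tcKO groups thus lay above both Cre- groups for these 3 genes. The remaining nuclei were also higher in Tet tcKO for Foxp2 and Tmem132b, so their order within cluster 30 does not show an excess over the remaining nuclei. For Crym no ratio in the remaining nuclei is given, so its values show no such excess either.

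Of the other 7 genes at the top of the ranking, Gngt2 and Cngb3 are cone genes. Abcd4 was 3.17 above cluster 14 against 2.23 in the remaining nuclei, and Myh13, Dstyk, Iqgap2 and Col4a5 were between 2.38 and 2.74 above it. For Myh13 the remaining nuclei stood at 0.37, and the difference was 2.37 (1.21 to 3.52). At the other end, BC055402, Reep6, Igsf9, Rcvrn, St8sia1, Ppef2, Gm6999, Prodh, Podxl2 and Smc6 each gave 1 UMI in cluster 37 against 21 to 35 in cluster 14. Reep6, Rcvrn and Ppef2 are photoreceptor genes. Prodh, or proline dehydrogenase, was at 126 CPM in cluster 14, 230.4 CPM in Cre- cluster 30, 44.4 CPM in Tet tcKO cluster 30 and 12.2 CPM in cluster 37. BC055402, annotated as a long noncoding RNA, stood at 200.4, 415, 163 and 12.2 CPM in the same order, with a log2 ratio of -4.03 (-9.38 to -1.46) and -1.41 in the remaining nuclei. Both genes were lower in Tet tcKO than in Cre- in either pairing, on few UMIs.

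Cluster 30 allowed the 2 genotypes to be set side by side within a cluster. Of 998 genes counted, 94 (9.42%) were at least 2-fold higher and 97 (9.72%) at least 2-fold lower in Tet tcKO. This split was not stable, with 135 higher and 66 lower under TMM scaling and 156 and 62 under median-of-ratios scaling. Among 6 Müller markers with 20 or more UMIs, none was 2-fold higher and 3 were 2-fold lower. Glul was at 1007 CPM in Tet tcKO and 2419 CPM in Cre-, a log2 ratio of -1.26 (-1.73 to -0.81), or -0.81 when counted at most once in a nucleus. Rlbp1 was at -1.57 (-2.77 to -0.45) and Car14 at -1.72 (-3.15 to -0.43). In the remaining nuclei these genes stood at -1.29, -1.75 and -0.99, so none differed from the remaining nuclei beyond counting error. Slc1a3 was alike on both sides, at 933 and 875 CPM (0.09, -0.51 to 0.71), and the summed list was at -0.76 (-1.01 to -0.51) against -0.48 in the remaining nuclei. Glul gave 105 of the 275 marker UMIs on the Cre- side and 68 of 253 on the Tet tcKO side, while Abca8a, like Slc1a3, had an interval that included 0 (-0.41, -1.09 to 0.27).

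**Figure D5:**
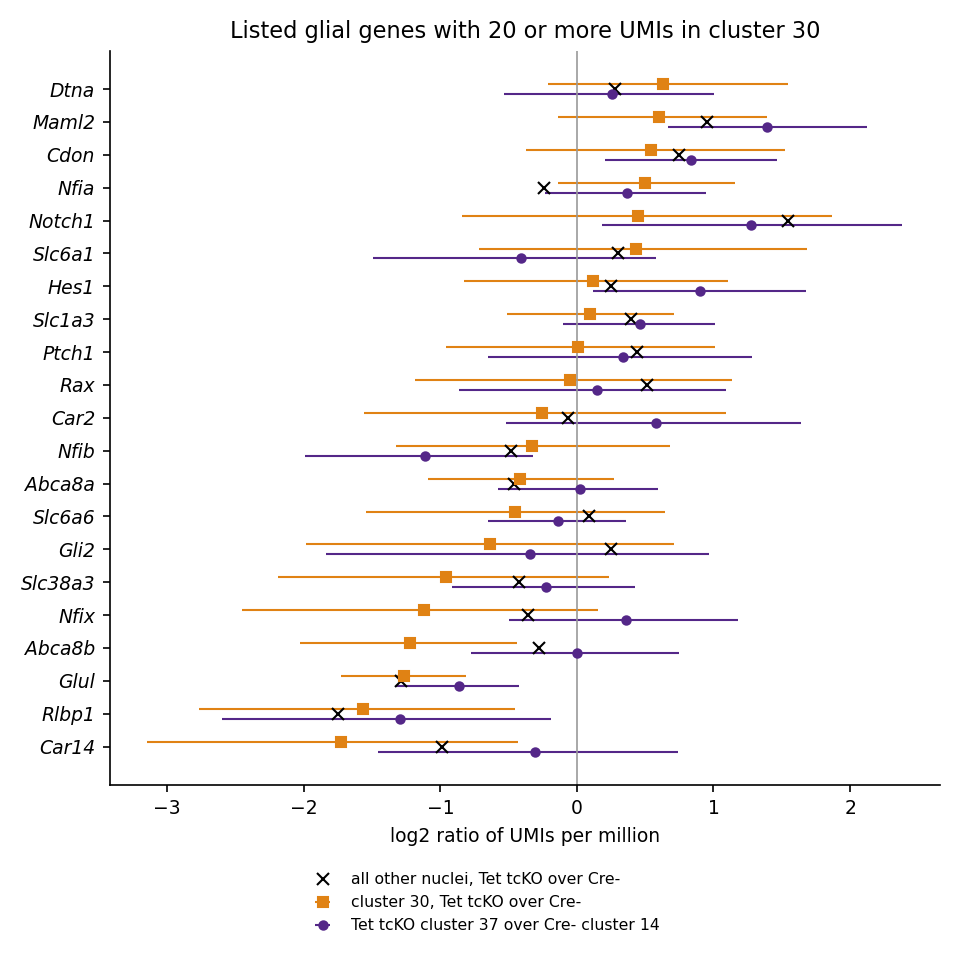
Log2 ratios with 95% intervals for the 21 listed glial genes with 20 or more UMIs in cluster 30: Tet tcKO over Cre- within cluster 30, cluster 37 over cluster 14, and the remaining nuclei as crosses. Glul lay at -1.26, -0.86 and -1.29, and Slc1a3 at 0.09, 0.46 and 0.39.

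Beyond the markers, Fgf14, a regulator of voltage-gated sodium channels, had the highest ratio within cluster 30, with 68 UMIs in 26 Tet tcKO nuclei and 4 UMIs in 4 Cre- nuclei. Its log2 ratio was 3.45 (2.03 to 5.37) against 1.07 in the remaining nuclei. Slco1c1, a transporter of thyroid hormone and organic anions, was at 340.8 CPM in Tet tcKO cluster 30 but between 34.4 and 48.9 CPM in the other 3 groups, on 23 UMIs in 15 nuclei. It was thus high in 1 of the 4 groups, unlike Foxp2 and Tmem132b. Pam, Alk, Jazf1, Flrt2, Pdlim3, Vav3 and Abcd4 completed the highest 10 together with Cngb3, at log2 ratios from 2.30 to 2.89. Among the lowest were Dscaml1 (-2.64), Il33 (-2.37), Zbtb16 (-2.28), mt-Nd5 (-2.22), Spc25 (-2.17), Rsrc2, Itga9, Mapt and Sfpq. Il33, an alarmin cytokine that stood first among the leading genes of Cre- cluster 30, was at 460.7 CPM there and 88.9 CPM in Tet tcKO cluster 30, while in the remaining nuclei its log2 ratio was -1.40. Spc25 was lower still in the remaining nuclei, at -2.95.

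Within the Cre- library, cluster 14 carried less of most Müller RNA and more rod, cone and bipolar RNA than cluster 30. Of 2406 genes counted, 467 (19.4%) were at least 2-fold higher and 242 (10.1%) at least 2-fold lower in cluster 14, or 670 and 114 with TMM scaling. With no filter on UMIs the split turned, to 961 higher and 1933 lower. Of 11 Müller markers counted, none was 2-fold higher and 5 were 2-fold lower: Gli2, Slc1a3, Rlbp1, Glul and Car14. Under TMM and median-of-ratios scaling none of the 11 passed 2-fold, and these 5 kept their sign at log2 ratios from -0.95 to -0.71. The list summed to a log2 ratio of -0.96 (-1.17 to -0.75). Rod markers summed to 0.96 (0.70 to 1.23), cone markers to 1.21 (0.64 to 1.84) and bipolar markers to 1.63 (1.21 to 2.08). These sums were 0.29, 0.63 and 0.81 when each gene counted at most once in a nucleus, and Sag, Arr3 and Prkca then turned slightly lower in cluster 14. Trpm1 gave 165 UMIs in cluster 14 and 4 in cluster 30, and Grm6, the glutamate receptor of ON bipolar cells, gave 32 and 1. The highest ratio belonged to the zinc-finger gene Zfp804a, with 95 UMIs in 49 nuclei of cluster 14 and 1 UMI in cluster 30, at 4.56 (2.05 to 9.88). Mdn1, Arhgef26, Kcnh7, Ankrd33b, Cacnb4, Slf2 and Hif1a followed, each with 1 UMI in cluster 30. Lower in cluster 14 were Irak2 (-3.23), the growth factor receptor Egfr (-2.59), Col4a5, Creb5, Zfp36l1, Arrdc2, Cspg5, Il33, Sox6 and Cables1.

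Within the Tet tcKO library, cluster 37 likewise carried less Müller marker RNA and more rod, cone and bipolar marker RNA than cluster 30. Of 1466 genes counted, 142 (9.69%) were at least 2-fold higher and 75 (5.12%) at least 2-fold lower in cluster 37, or 189 and 53 with median-of-ratios scaling and 119 and 94 with TMM scaling. None of the 4 Müller markers counted passed 2-fold in either direction, and the 15 markers summed to -0.51 (-0.78 to -0.24). Rod markers summed to 1.06 (0.67 to 1.46), cone markers to 1.56 (1.25 to 1.89, or 0.97 with each gene at most once in a nucleus) and bipolar markers to 0.70 (0.27 to 1.15). Zfp804a again had the highest ratio, with 39 UMIs in 14 nuclei of cluster 37 and 2 UMIs in cluster 30, at 4.01 (2.06 to 7.10). Crx, the photoreceptor homeobox factor, Rpgr, a ciliary gene of photoreceptors, and the cone exchanger gene Slc24a2 were also among the highest, at 2.46, 2.23 and 2.42, with Zdhhc14, Dscaml1, Camk2b, Pde8b, Ctnna2 and Ddhd1. Lower in cluster 37 were Slco1c1 (-2.80), Ano6, Pdlim3, Adk, Med12l, Lgr4, Stk3, Creb5, Stxbp4 and Ddx6. The 4 comparisons share nuclei with each other, so the values stand side by side and do not count as repeats.

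The lists of Müller functions showed where the glial genes lay in the 4 groups. For transport of transmitters and amino acids, the sums of 8 genes stood at -0.31 (-0.55 to -0.06) for cluster 37 over 14, or -0.04 with each gene at most once in a nucleus, and at -0.67 (-0.97 to -0.36) for cluster 30 Tet tcKO over Cre-, with -0.28 in the remaining nuclei. Of 5 genes counted in each of these comparisons, Glul alone passed 2-fold, within cluster 30. Slc38a3, a glutamine exporter, was at 401 CPM in cluster 14, 346 CPM in Cre- cluster 30, 178 CPM in Tet tcKO cluster 30 and 343 CPM in cluster 37. Slc6a6, the taurine transporter, was at 659, 346, 252 and 599 CPM. Both had higher point values in clusters 14 and 37 than in cluster 30 of the same library, the order of the summed photoreceptor markers and the reverse of Slc1a3. For Slc38a3 the intervals overlapped, at 312 to 506 CPM and 193 to 570 CPM in Cre- clusters 14 and 30. In Tet tcKO clusters 37 and 30 they were 228 to 495 CPM and 91.9 to 311 CPM. Those of Slc6a6 overlapped in Cre-. The source of this RNA was not tested.

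Among genes for potassium, water and acid-base balance, the channels that define Müller glia were barely detected. Kcnj10, their main potassium channel, gave 3, 1, 0 and 1 UMIs, and the water channel Aqp4 gave 3, 6, 6 and 3. Dtna, a dystrobrevin of the complex that anchors channels, stood at 246, 392, 607 and 294 CPM, highest in Tet tcKO cluster 30. The retinoid handling list summed to -1.20 (-2.03 to -0.40) within cluster 30 and -0.30 (-1.04 to 0.40) for cluster 37 over 14, with -0.49 in the remaining nuclei. Its member Rlbp1 gave 42, 21, 11 and 8 UMIs, and Rdh10 gave 4, 8, 7 and 6. For cluster 37 over 14 Rlbp1 alone stood at -1.30, so the sum does not describe each member.

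The summed lipid handling list differed from the remaining nuclei within cluster 30. The sum was -0.65 (-1.08 to -0.23) in Tet tcKO over Cre-, while the remaining nuclei stood at 0.37. The 2 sums weighted different genes. In cluster 30, Abca8a gave 36 (Cre-) and 42 (Tet tcKO) UMIs, Abca8b 36 and 24, and Apoe 8 and 11. Apoe in the remaining nuclei was at 100 CPM (Cre-) and 179 CPM (Tet tcKO), above Abca8a and Abca8b there. Abca8b, a paralogue of Abca8a with which it may exchange reads, was at 829 CPM in Cre- cluster 30 and 356 CPM in Tet tcKO cluster 30, a log2 ratio of -1.22 (-2.03 to -0.44) against -0.28 in the remaining nuclei. Clusters 14 and 37 were level for it, at 280.6 and 281 CPM. Of the phagocytic genes, Megf10, an engulfment receptor of glia, was at 114.5, 184, 326 and 122.3 CPM and led in Tet tcKO cluster 30, where it was also among the leading 10 genes.

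The glial transcription factors as a list differed little between the genotypes, at 0.17 (-0.12 to 0.45) for cluster 37 over 14 and 0.08 (-0.27 to 0.42) within cluster 30. Nfia, a nuclear factor I gene required for gliogenesis, stood at 389 CPM (68 UMIs), 714 CPM (31 UMIs), 1007 CPM (68 UMIs) and 502 CPM (41 UMIs). Its log2 ratio was 0.37 (-0.23 to 0.95) for cluster 37 over 14 and 0.50 (-0.14 to 1.16) within cluster 30, so both intervals included 0, while the remaining nuclei stood at -0.24. When it counted at most once in a nucleus these ratios were 0.57 and -0.27, so the sign within cluster 30 turned. With all UMIs, the difference from the remaining nuclei was 0.61 (0.04 to 1.17) and 0.74 (0.12 to 1.36). Nfib ran the other way between clusters 37 and 14, at 195.8 and 424 CPM, or -1.11 (-1.99 to -0.32) on the log2 scale, against -0.48. Hes1, a Notch target, was at 183, 369, 400.0 and 343 CPM, so that cluster 14 was the lowest of the 4 groups.

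Notch pathway genes were higher in cluster 37 than in cluster 14, with a sum of 1.08 (0.68 to 1.48), an interval that reaches the 0.68 of the remaining nuclei. Of 4 counted genes 3 were past 2-fold, where 6.72% of all counted genes were. These were Notch1 at 1.28 against 1.55 in the remaining nuclei, Notch2 at 1.22 (-0.09 to 2.54) against 0.69 and the coactivator Maml2 at 1.39 against 0.95. Notch1 was at 85.9 CPM in cluster 14, 184 CPM in Cre- cluster 30, 252 CPM in Tet tcKO cluster 30 and 208 CPM in cluster 37. Within cluster 30 the list summed to 0.46 (-0.01 to 0.95) with none of 3 counted genes past 2-fold, and within Cre- cluster 14 was lower than cluster 30 by -1.05 (-1.53 to -0.55). Cluster 14 was the lowest of the 4 groups for Notch1 and, at 177.5 CPM, for Maml2. The hedgehog list summed to 0.58 (0.17 to 0.98) for cluster 37 over 14 and 0.21 (-0.29 to 0.72) within cluster 30, against 0.53 in the remaining nuclei. Cdon, a hedgehog coreceptor, was at 281, 346, 504 and 502 CPM.

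Of 20 retinal progenitor genes, 4 reached 20 UMIs in the comparison of clusters 37 and 14. Pax6 was at 807 CPM (141 UMIs), 1129 CPM (49 UMIs), 1156 CPM (78 UMIs) and 1101 CPM (90 UMIs), and at 423 and 639.7 CPM in the remaining nuclei. Within cluster 30 its log2 ratio was 0.03 (-0.50 to 0.58), while it was 0.60 in the remaining nuclei, a difference of -0.56 (-1.08 to -0.04). The progenitor list summed to 0.53 (0.23 to 0.82) for cluster 37 over 14 and 0.24 (-0.17 to 0.65) within cluster 30, against 0.71 in the remaining nuclei. Gfap, the intermediate filament that reactive Müller glia accumulate, gave 2, 0, 1 and 0 UMIs, and the 15 gliosis genes summed to 45, 17, 22 and 26 UMIs. No difference in them was detectable at this depth, with a log2 ratio of 0.30 (-0.45 to 1.03) for cluster 37 over 14 and -0.26 (-1.24 to 0.74) within cluster 30.

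The targeted genes gave few UMIs. Tet3 had 37, 4, 12 and 14 UMIs in Cre- cluster 14, Cre- cluster 30, Tet tcKO cluster 30 and Tet tcKO cluster 37, or 212, 92.1, 178 and 171 CPM. Tet1 had 11, 1, 4 and 6 UMIs and Tet2 had 14, 7, 9 and 10. The 3 genes summed to 0.05 (-0.63 to 0.70) for cluster 37 over 14 and 0.42 (-0.62 to 1.55) within cluster 30. These are tags from the 3' end of transcripts, which may lie outside the deleted exons, so they do not check the genotype of these nuclei.

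The 2 Cre- nuclei in cluster 37 held 1923 and 2240 UMIs, with 17 UMIs of Müller markers, 9 of them from Glul. Müller markers made up 0.364% and 0.446% of their UMIs. Bipolar markers made up 0.0446% and 1.40%, with 12 UMIs of Trpm1 and 4 of Grm6, and rod and cone markers together gave 4 UMIs. A group of 2 nuclei, in which 3 UMIs correspond to 720.6 CPM, does not allow a comparison of genotypes within cluster 37.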

How the data were processed

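Nuclei of whole mouse retinas were isolated by Dounce homogenisation and sequenced from the 3' end with the PIPseq T20 kit. Per the labels, the authors processed reads with pipseeker 3.3.0 on GRCm39. By their methods they ran CellBender to lessen ambient RNA, kept nuclei within bounds on transcripts and mitochondrial percent, and clustered and annotated nuclei with Monocle3. Whether the deposited counts are from before or after CellBender was not tested. The deposited UMI counts per gene and nucleus were used as they stood. The authors' cell tables gave cluster, annotation and the mitochondrial percent, and their per-gene mean columns (a pooled signal) were used only for checking the matrices. The sources used here do not say how doublets were treated, and the cell tables give no doublet score. No column of another sample was present (0 columns).

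The members and gene lists were chosen with earlier results of these data known. Counts were summed per cluster and library and scaled to 1e+06. Levels carry exact Poisson intervals, ratios exact conditional intervals, differences of log2 ratios normal intervals, and shares Clopper-Pearson intervals. All are at 95% and for counting error only. Of these, only the ratios and their intervals were tested on simulated data, which held counting error alone. A count of 0 was set to 3 UMIs in ratios. Genes needed 20 UMIs over both groups. Named genes were listed members that passed this, the 10 highest and 10 lowest ratios per comparison among genes in 10 or more nuclei of the higher group, and the 10 leading genes of each cluster. Intervals of genes named by rank do not allow for their choice on the same counts. Members outside this rule, given with their UMIs, were named after their values were seen. Marker shares used nuclei thinned to 500 UMIs. The gene table held 32227 genes, and 27 symbols were shared by 2 genes. Gene positions came from the GRCm39 annotation by identifier. Values of some genes are not reported here. Alternatives were other scalings (edgeR 4.0.16), filters, counting rules and subsets of nuclei. Python 3.11.15, numpy 2.4.6, scipy 1.17.1, pandas 2.3.3, matplotlib 3.10.9 and R 4.3.3 were used.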

Additional observations from a re-analysis of the deposited data

How the results depend on the processing

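Signs changed in 48 single genes or list sums, 44 of them with an interval that included 0. The other 4 reversed when a gene counted once per nucleus: Prkca in cluster 37 over cluster 14 (-0.71 to 0.19), and Sag (1.25 to -0.17), Arr3 (1.00 to -0.21) and Prkca (1.26 to -0.026) in cluster 14 over cluster 30. The cause was not tested. The number of genes past 2-fold depended on the filter and on counting. For cluster 37 over 14 it was 586, and 1488 with 10 or more UMIs, 2405 with no filter, 176 with 50 or more UMIs and 355 when a gene counted once per nucleus. In the same order it was 191, 585, 1523, 45 and 100 for cluster 30 Tet tcKO over Cre-, 709, 1527, 2894, 188 and 439 for cluster 14 over 30, and 217, 718, 1856, 39 and 103 for cluster 37 over 30. Scaling moved the median of all genes by more than 0.1 in places: from -0.09 to -0.24 (TMM) for cluster 37 over 14, from -0.05 to 0.12 (TMM) and 0.17 (median of ratios) for cluster 30, from 0.16 to 0.46 (TMM) and 0.45 (median of ratios) for cluster 14 over 30, and from 0.00 to 0.14 (median of ratios) for cluster 37 over 30. The Müller marker sum of cluster 14 over 30 was -0.96, and -0.67 under both scalings. When a gene counted once per nucleus, the excess of Müller markers over the remaining nuclei was 1.31 in cluster 14, 2.09 in Cre- cluster 30, 1.91 in Tet tcKO cluster 30 and 1.45 in cluster 37. The shares of nuclei with a marker UMI were 73.7%, 93.0%, 89.1% and 67.9% without thinning, and 77.8%, 93.0%, 73.9% and 57.1% over all 15 markers. Nuclei with 2 or more of the 5 markers formed 0.571% (Cre-) and 0.399% (Tet tcKO) of all nuclei. The other 64 values of main comparisons, and 2656 of single genes, lists and directions, stayed within their counting interval or within 1.5 times, and 68 more moved. Zfp804a in cluster 14 over 30 was at 1.99 among nuclei with 1000 or more UMIs, where cluster 30 had 0 UMIs and was set to 3.

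No paired analysis was possible because each genotype is 1 library, which also leaves no replicate to omit. Leaving out nuclei by the authors' doublet scores was not run because the cell tables give none. A score computed from pairs of genes, and totals without photoreceptor, bipolar and mitochondrial genes, were added after seeing the data. Depth limited the smaller groups most: 3 UMIs correspond to 17.2 CPM in cluster 14, 69.1 and 44.4 CPM in cluster 30 and 36.7 CPM in Tet tcKO cluster 37.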
